A study of Mus musculus with 48 samples.

Results

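The Hox genes encode homeobox transcription factors that give cells of the embryo their position along the head-to-tail axis and along the limbs. In the mouse they lie in 4 clusters, Hoxa, Hoxb, Hoxc and Hoxd, and the number in a gene's name is its paralog group: low numbers are used toward the head and high numbers toward the tail and the limb tips. Adult cells, fibroblasts among them, keep part of this pattern, so that a tissue or a transplanted cell line carries a set of Hox transcripts. Hox proteins bind DNA with partner proteins of the Pbx and Meis families, and Polycomb and Trithorax complexes hold the clusters silent or active.

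The 39 genes described here are those whose symbol in the deposited table is Hoxa, Hoxb, Hoxc or Hoxd followed by a number, out of 39637 genes in all. Antisense and opposite-strand transcripts of the clusters are not among them. Of the 39, 11 lie in the Hoxa cluster on chromosome 6 (minus strand), 10 in Hoxb on chromosome 11 (96194316 to 96368256, plus strand), 9 in Hoxc on chromosome 15 (102921103 to 103036852, plus strand) and 9 in Hoxd on chromosome 2 (74668310 to 74765142, plus strand). These positions are from GENCODE M21 on GRCm38, in which all 39 are protein-coding genes. The build the authors used is not given in the sources used here.

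RNA was sequenced from 48 whole tumours grown under the skin of female BALB/c mice aged 8 to 9 weeks, 1 library per mouse. Of these, 24 grew from the mouse mesothelioma line AB1 and were cut out 8 days after injection, and 24 grew from the kidney cancer line Renca and were cut out after 10 days. No tumour had yet met the anti-CTLA4 and anti-PD-L1 antibodies; the later outcome of that treatment made each mouse a responder or a non-responder, which gave 4 groups of 12 libraries. Every tumour of a type came from the same cell line, so a comparison of AB1 with Renca compares those lines, with day of removal and flow cell confounded with them. A library holds the tumour cells together with the host's fibroblasts, vessels and leukocytes. In such bulk samples, fewer cells of a type and less RNA per cell cannot be told apart.

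The smallest library held 16.44 M and the largest 27.84 M counts (M, mega), and no library was a copy of another. Levels are given in CPM, counts relative to the library total after TMM scaling over all 48 libraries. Of the kidney lineage markers, Pax2, Pax8 and Cdh16 were present in every Renca library, and no AB1 library passed 0.135 CPM for any of them. The mesothelium markers were scarce in AB1, where Upk3b stayed at or below 0.0882 CPM, Lrrn4 at or below 0.171 CPM and Wt1 ran from 0.182 to 7.86 CPM. AB1 non-responder 3 stood apart with 956.3 CPM of summed keratinocyte markers. AB1 non-responder 7 held 423.3 CPM and AB1 responder 3 held 105.1 CPM, and the other 21 AB1 libraries held at most 18.37 CPM.

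RefSeq promoter sequences on GRCm38.p6 were matched for 22 of the 39 genes, with 24 start sites. The 250 bases before a start held a median of 12.5 CpG dinucleotides in these 24 windows and of 6 over all 32851 windows of the table. Here 4 windows are shown, 1 each for a gene seen in AB1 but hardly in Renca (Hoxd13), a gene higher in Renca (Hoxb8), the gene that rose in AB1 responders (Hoxb4) and an abundant gene of both tumours (Hoxd8), with capitals marking each CpG. Hoxd13 (chr2:74667975-74668224, plus strand) held 31 CpGs, more than 94.8% of all windows. Hoxb8 (chr11:96281655-96281904, plus strand) held 12, Hoxb4 (chr11:96318017-96318266, plus strand) held 14 and Hoxd8 (chr2:74704365-74704614, plus strand) held 6.
Hoxd13: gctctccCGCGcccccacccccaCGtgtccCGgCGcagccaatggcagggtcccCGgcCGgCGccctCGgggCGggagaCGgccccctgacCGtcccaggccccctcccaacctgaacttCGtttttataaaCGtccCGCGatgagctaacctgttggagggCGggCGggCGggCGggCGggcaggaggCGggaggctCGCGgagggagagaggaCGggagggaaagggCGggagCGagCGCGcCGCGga
Hoxb8: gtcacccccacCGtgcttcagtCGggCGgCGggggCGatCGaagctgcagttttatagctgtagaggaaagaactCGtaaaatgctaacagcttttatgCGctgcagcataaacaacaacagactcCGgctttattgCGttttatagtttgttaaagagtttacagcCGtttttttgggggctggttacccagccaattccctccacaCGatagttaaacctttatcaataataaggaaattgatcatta
Hoxb4: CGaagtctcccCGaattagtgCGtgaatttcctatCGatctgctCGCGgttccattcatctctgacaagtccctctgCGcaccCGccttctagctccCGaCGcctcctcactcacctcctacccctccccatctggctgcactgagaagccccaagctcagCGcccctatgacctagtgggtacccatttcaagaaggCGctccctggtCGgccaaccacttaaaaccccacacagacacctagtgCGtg
Hoxd8: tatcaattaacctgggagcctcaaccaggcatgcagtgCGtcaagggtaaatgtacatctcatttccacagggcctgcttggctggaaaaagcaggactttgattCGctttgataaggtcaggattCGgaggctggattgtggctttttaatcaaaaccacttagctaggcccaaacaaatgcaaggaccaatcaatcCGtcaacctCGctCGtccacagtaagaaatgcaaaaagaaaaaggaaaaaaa

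Both strands of the windows were searched for 3 motifs, namely the TATA box spelled TATAAA, the CCAAT box, and TGATNNAT as a form of the joint Pbx and Hox binding motif. TATAAA was found in 4 of the 24 Hox windows (16.7%, against 12.4% of all windows), CCAAT in 14 (58.3%, against 33.8%) and TGATNNAT in 4 (16.7%, against 7.7%). Matches to different motifs overlapped in 0 of the Hox windows. The Hoxb8 window held all 3 motifs, Hoxd13 held TATAAA and CCAAT, and Hoxd8 held CCAAT. In the Hoxb4 window none of these letters was found. A match is a description of the sequence only.

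Most Hox genes were transcribed in both tumours. Counting a gene as detected in a group where at least 6 of 12 libraries reached 1 CPM, 24 of the 39 were detected in all 4 groups. They included Hoxa3, Hoxa5 to Hoxa7, Hoxa9 to Hoxa11, Hoxb3 to Hoxb8, all of Hoxc4 to Hoxc10 that exist in the mouse, Hoxd4 and Hoxd8 to Hoxd11. Hoxa2, Hoxc13, Hoxd3 and Hoxd13 were detected in both AB1 groups and no Renca group, and Hoxb9 in both Renca groups and no AB1 group. Hoxb2 lay close to 1 CPM and was detected in some groups only. In AB1, 28 were detected among responders and 30 among non-responders, and in Renca 26 and 27.

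**Figure D1:**
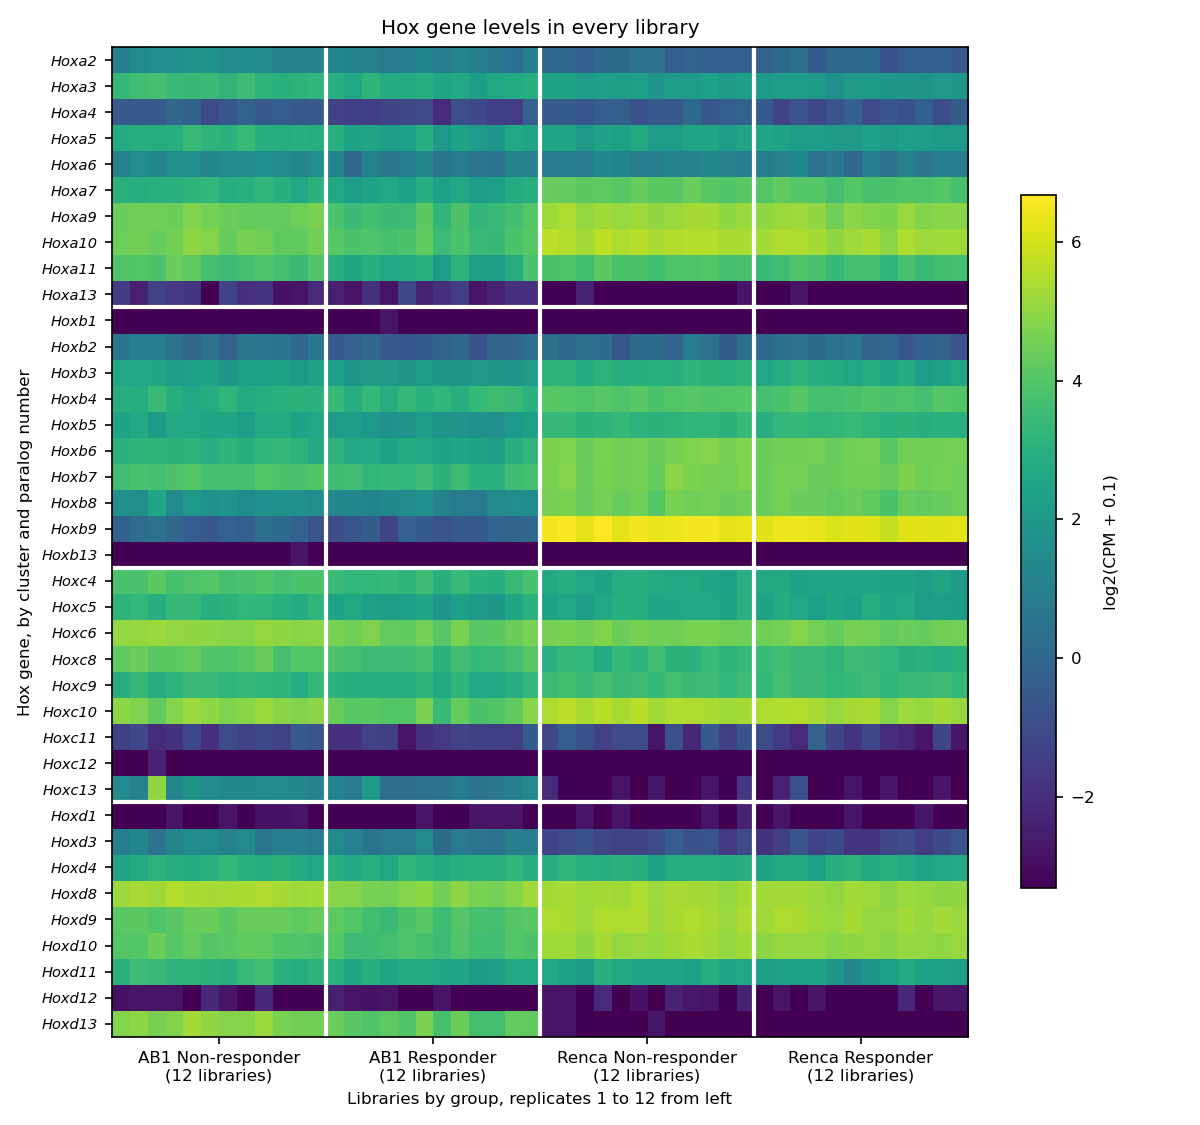
Level of 38 Hox genes (rows, by cluster and paralog number) in the 48 libraries (columns, by group), as log2(CPM + 0.1). The Hoxb9 row is bright in all 24 Renca libraries and dark in AB1, the Hoxd13 row is bright in AB1 only, and AB1 non-responder 3 carries 1 bright Hoxc13 cell at 32.3 CPM.

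The 8 genes detected in no group were Hoxb1 and Hoxd1 at the anterior ends of their clusters, Hoxa13 and Hoxb13 at the posterior ends, and Hoxa4, Hoxc11, Hoxc12 and Hoxd12. Hoxb1, which marks part of the embryonic hindbrain, had 1 count over the 48 libraries, Hoxb13, a prostate gene, had 1, and Hoxc12 had 2. Hoxd1 had 17 counts and Hoxd12 had 35. Hoxa13, needed for digits and genitalia, had 84 counts over the AB1 libraries and 4 over the Renca libraries, a ratio of 18.7 (95% counting interval 7.02 to 70.1). Hoxc11 reached at most 0.659 CPM in AB1 and 0.787 CPM in Renca. Hoxa4 ran from 0.131 to 0.88 CPM in AB1 and from 0.316 to 0.983 CPM in Renca.

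Divided by exon length, the order of the genes differed between the tumours. In AB1 the highest median levels were those of Hoxc10 (13.5 CPM per kb), Hoxd8 (13.3), Hoxc6 (11.5), Hoxd13 (9.05) and Hoxd10 (8.42). In Renca they were those of Hoxb9 (30.5 CPM per kb), Hoxc10 (21.8), Hoxd10 (18.6), Hoxd9 (18.4) and Hoxb7 (15.4). Hoxd8, a central gene of its cluster, lay near this top in both, at 13.3 and 14 CPM per kb. Hoxd13, the fourth in AB1, had a median of 0 in Renca, and Hoxb9, the leading gene in Renca, stood at 0.285 CPM per kb in AB1.

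The Hoxb cluster took 11.1% to 16.3% of all Hox counts in the AB1 libraries and 32.9% to 36.1% in the Renca libraries, with no overlap. The Hoxc cluster took 26.9% to 34.1% in AB1 and 17.3% to 20.5% in Renca, and the Hoxd cluster 29.9% to 36% and 22.7% to 25.6%, again with no overlap. The share of the Hoxa cluster, 20% to 26.8% in AB1 and 20.4% to 24.3% in Renca, overlapped. Shares are of counts, so longer genes weigh more.

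Between the tumours, 32 Hox genes could be tested, with all 48 libraries and response as a term. AB1 was higher for 12 and lower for 18 (edgeR quasi-likelihood test, Benjamini-Hochberg adjusted p under 0.05), beside 42.1% of all tested genes called higher and 39.2% called lower (81.3% in either direction). The other 2, Hoxb2 and Hoxd4, had log2 fold changes of 0.03 ± 0.12 and 0.13 ± 0.063 (SE). At a change of at least 1 on the log2 scale, 5 were higher in AB1 and 8 lower, beside 10.8% and 12.2% of all genes (22.9% together). The median log2 fold change was -0.33 over the 32 Hox genes and 0.03 over all genes tested. The libraries of the tumours did not overlap for 4 Hox genes above and 9 below (all genes, 7.89% and 13.1%).

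Markers of host cell types also differed between the tumours. All 6 tested keratinocyte markers were higher in AB1, where the list summed to 5.13 to 956 CPM against 1.82 to 40.8 CPM in Renca. Of 5 tested adipocyte markers 4 were higher and 0 lower by edgeR, with sums of 55.2 to 439 CPM in AB1 and 17.8 to 85.4 CPM in Renca. Of the 8 leukocyte markers 6 were higher and 1 lower, at 1740 to 5360 CPM and 1770 to 3220 CPM. Of the 7 fibroblast markers 2 were higher and 3 lower, at 10000 to 32100 CPM and 11400 to 40500 CPM. All 4 ranges overlapped, and the part of these cell types in the Hox differences was not tested.

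The genes higher in AB1 were led by the ends of the Hoxd and Hoxc clusters. Hoxd13, which patterns the digits, ran from 12.7 to 38.8 CPM over the 24 AB1 libraries (median 22.5). In Renca it had 0 counts in all 12 responders and 3 counts over the 12 non-responders, in a highest library of 0.0465 CPM. The pooled ratio was 3920, with a 95% counting interval from 1340 to 19000 that covers counting error only. Its fitted log2 fold change of 10.98 ± 0.16 (SE) depends on the prior count. With 3 Renca counts in all, this SE is not a measure of the precision of the ratio.

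Hoxc13, a gene of hair follicles and nails, ran from 1.09 to 32.3 CPM in AB1 (median 2.16) and from 0 to 0.439 CPM in Renca, where it had 25 counts in all. Every AB1 library lay above every Renca library, with a log2 fold change of 5.87 ± 0.46 (SE), which was 5.21 without the 3 AB1 libraries over 100 CPM of keratinocyte markers. Hoxd3, an anterior gene, ran from 1.05 to 2.7 CPM in AB1 and from 0.174 to 0.69 CPM in Renca, again without overlap (2.38 ± 0.12). Of the exon bases of Hoxd3, 62.35% are shared on the same strand with Hoxd4 or a neighbouring transcript, so counts of the pair are uncertain. Hoxa2, which patterns the second pharyngeal arch, ran from 1.15 to 3.61 CPM in AB1 and from 0.451 to 1.35 CPM in Renca, with a small overlap (1.39 ± 0.093). Hoxc4 ran from 7.66 to 17.8 CPM in AB1 and from 3.98 to 7.64 CPM in Renca (1.005 ± 0.061). Its lowest AB1 library stood just above its highest Renca library.

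The other 7 genes higher in AB1 changed by less than 1 on the log2 scale. Hoxa3 (0.95 ± 0.064), Hoxc8 (0.61 ± 0.078), Hoxd11 (0.53 ± 0.083) and Hoxa5 (0.45 ± 0.075) were followed by Hoxa6 (0.25 ± 0.086), Hoxc5 (0.20 ± 0.083) and Hoxc6 (0.18 ± 0.058). Among responders alone Hoxc5 turned to -0.09 and Hoxc6 to -0.07, opposite to the direction over all libraries.

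**Figure D2:**
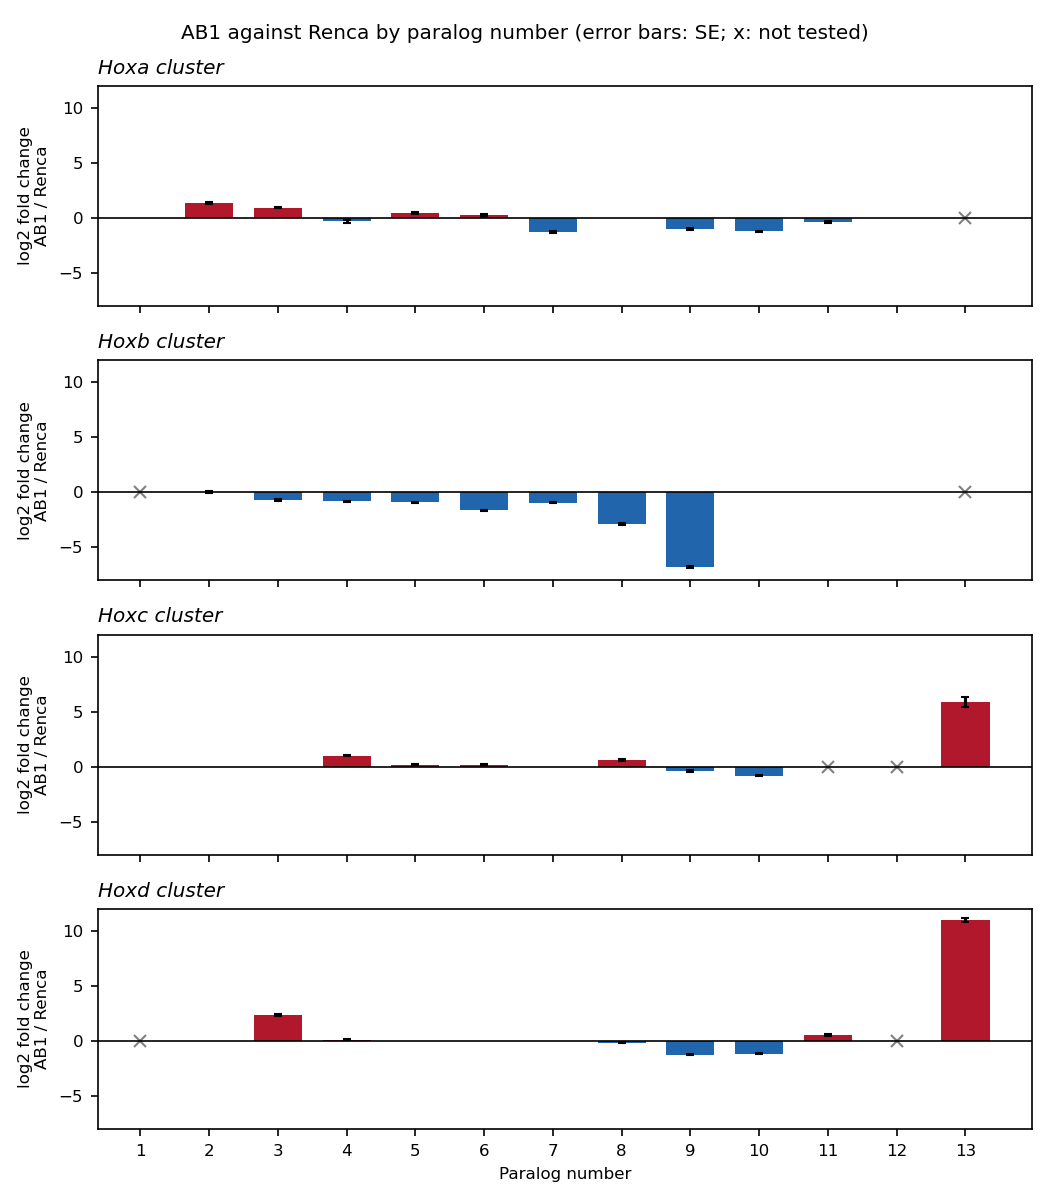
Fitted log2 fold change of AB1 against Renca (vertical axis, bars with SE) by paralog number (horizontal axis) in each cluster, with crosses for genes that were not tested. In Hoxb no bar is clearly above 0 and the longest is Hoxb9 at -6.75, while Hoxc13 at 5.87 and Hoxd13 at 10.98 close the Hoxc and Hoxd clusters.

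Of the 8 tested Hoxb genes, 7 were lower in AB1 and 0 higher by the edgeR test, with the same counts of higher and lower genes at an unadjusted p of 0.05. Hoxb9, a gene of the thoracic region, ran from 0.317 to 1.26 CPM in AB1 (median 0.732) and from 55.9 to 102 CPM in Renca (median 78.4). Its pooled ratio of Renca to AB1 was 109 (95% counting interval 98.9 to 120) and its log2 fold change -6.75 ± 0.082 (SE). Hoxb8, a gene used to keep myeloid progenitors growing in culture, ran from 1.67 to 5.89 CPM in AB1 and from 14.3 to 25.3 CPM in Renca (-2.86 ± 0.077). Hoxb6 ran from 4.7 to 10.1 CPM in AB1 and from 17.4 to 28.8 CPM in Renca (-1.65 ± 0.059). None of these 3 overlapped between the tumours, and neither did Hoxb4, Hoxb5 and Hoxb7, whose log2 fold changes were -0.80 ± 0.058, -0.91 ± 0.065 and -0.95 ± 0.052. Hoxb3 overlapped and was lower by -0.69 ± 0.055.

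Outside Hoxb, the genes lower in AB1 by at least 1 included Hoxa7, Hoxa10, Hoxd9 and Hoxd10. Hoxa7 ran from 4.42 to 9.77 CPM in AB1 and from 13.1 to 20.9 CPM in Renca (-1.26 ± 0.056). Hoxd9, a posterior gene used in limbs and trunk, ran from 10.7 to 21.6 CPM and from 32.8 to 44.9 CPM (-1.23 ± 0.05). Hoxd10 ran from 11.5 to 21.4 CPM and from 29.2 to 42.3 CPM (-1.17 ± 0.042). These 3 did not overlap between the tumours. Hoxa10, known for its role in the uterus, overlapped by a narrow margin, at 10.3 to 31.4 CPM in AB1 and 30.7 to 50.9 CPM in Renca (-1.20 ± 0.067).

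**Figure D3:**
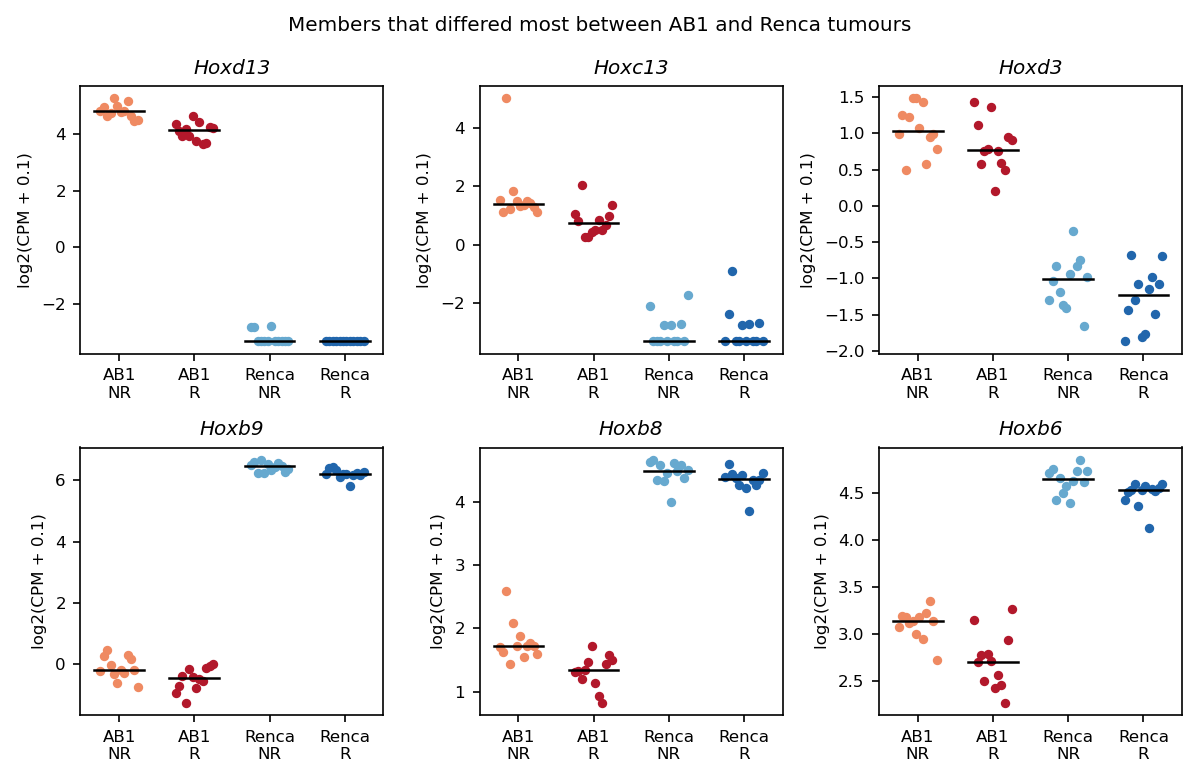
Level of 6 Hox genes in every library as log2(CPM + 0.1), by tumour and response (NR, non-responder; R, responder), with a bar at the median of the 12 libraries. Hoxd13, Hoxc13 and Hoxd3 are higher in all AB1 libraries than in any Renca library, and Hoxb9, Hoxb8 and Hoxb6 are lower in all of them.

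Hoxa9, Hoxc10, Hoxc9, Hoxa11, Hoxa4 and Hoxd8 were lower in AB1 by less than 1, with log2 fold changes of -0.99 ± 0.07, -0.81 ± 0.079, -0.39 ± 0.051, -0.37 ± 0.10, -0.29 ± 0.12 and -0.14 ± 0.048. Among non-responders alone Hoxa11 stood at 0.00092, Hoxd8 at 0.03 and Hoxa4 at -0.05. The call of Hoxa4 (edgeR adjusted p = 0.0466) was lost with DESeq2 (DESeq2 adjusted p = 0.0674) and with no filter (edgeR adjusted p = 0.0544). It was also lost without the AB1 libraries over 100 CPM of keratinocyte markers (edgeR adjusted p = 0.0794). Of the paralog group 13 genes tested, Hoxc13 and Hoxd13 were both higher in AB1, and of the group 9 genes Hoxa9, Hoxb9, Hoxc9 and Hoxd9 were all lower. Of the group 8 genes, Hoxc8 was higher and Hoxb8 and Hoxd8 were lower.

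By position along the clusters, the anterior genes of paralog groups 1 to 3 summed to 13.2 to 26.6 CPM in AB1 libraries and to 12.2 to 19.6 CPM in Renca libraries. The central genes of groups 4 to 8 summed to 106 to 195 CPM in AB1 and to 173 to 234 CPM in Renca. Both of these ranges overlapped. The posterior genes of groups 9 to 13 summed to 87.4 to 215 CPM in AB1 and to 227 to 363 CPM in Renca, with no overlap. Of the posterior genes tested, 3 of 11 were higher in AB1 and 8 lower, against 3 higher and 2 lower of 6 anterior genes and 6 higher and 8 lower of 15 central genes. The shares over all tested genes were 42.1% higher and 39.2% lower.

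Within AB1, the comparison of responders with non-responders asks which transcripts differed before treatment. Summed over the 39 genes, Hox transcripts ran from 207 to 329 CPM in responders (median 258) and from 339 to 429 CPM in non-responders (median 382), with no overlap. Of 32 tested genes, 27 were lower in responders, 1 (Hoxb4) was higher and 4 did not pass (edgeR quasi-likelihood test with flow cell as a term, adjusted over all genes). Over all tested genes, 33.1% were lower and 28% higher, 61.1% in either direction. The median log2 fold change was -0.49 over the Hox genes and -0.04 over all genes. Most falls were small: only Hoxc13 passed 1 on the log2 scale.

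In the Hoxa cluster, 9 of 10 tested genes fell. Hoxa9, a regulator of blood progenitors that acts with Meis1, ran from 9.34 to 17.5 CPM (median 11.9) in responders and from 19.1 to 27.4 CPM (median 21.8) in non-responders. Every responder lay below every non-responder (log2 fold change -0.77 ± 0.095, SE, edgeR adjusted p = 7.79e-07). Hoxa11, a gene of the forearm, kidney and uterus, ran from 4.43 to 13.8 CPM (median 7.04) and from 11 to 20.7 CPM (median 14.7) (-0.97 ± 0.15). All 12 responders were below the non-responder median. Hoxa11os, transcribed from the opposite strand over 34.98% of the Hoxa11 exon bases, cannot be told apart from it there without a strand setting.

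Hoxa10 ran from 10.3 to 18.6 CPM (median 14.1) in responders and from 18.1 to 31.4 CPM (median 22.4) in non-responders (-0.64 ± 0.097). Hoxa4 was scarce, from 0.131 to 0.783 CPM (median 0.305) and from 0.391 to 0.88 CPM (median 0.606) (-0.86 ± 0.19). Hoxa6 ran from 0.987 to 2.22 CPM (median 1.78) and from 2.09 to 3.13 CPM (median 2.68) (-0.58 ± 0.12). These 3 groups of values overlapped, with 0, 1 and 0 of 12 responders above the non-responder median. Hoxa3, needed for the thymus and parathyroid, ran from 4.6 to 8.91 CPM (median 6.98) and from 8.03 to 13.1 CPM (median 10.1) (-0.54 ± 0.086). Hoxa5, which patterns the lower neck and lung, ran from 3.7 to 7.73 CPM (median 5.46) and from 6.9 to 10.6 CPM (median 7.51) (-0.51 ± 0.12). The other 2 genes of the cluster that fell changed by less. Hoxa2 ran from 1.15 to 2.27 CPM (median 1.89) and from 1.89 to 3.61 CPM (median 2.69) (-0.45 ± 0.12). Hoxa7 ran from 4.42 to 7.6 CPM (median 5.69) and from 6.08 to 9.77 CPM (median 8.02) (-0.42 ± 0.092).

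Hoxb4 was the exception in the Hoxb cluster, where 6 of 8 tested genes fell. Hoxb4, known for expanding blood stem cells in culture, ran from 7.29 to 11.7 CPM (median 9.78) in responders and from 6.05 to 10.8 CPM (median 7.69) in non-responders. The groups overlapped, and the non-responder median was exceeded in 10 of 12 responders (log2 fold change 0.26 ± 0.095, SE, edgeR adjusted p = 0.0218). The change was 0.25 in the first flow cell alone (edgeR adjusted p = 0.29) and 0.29 in the second (0.0318). Its neighbours on the chromosome, Hoxb3 and Hoxb5, both fell.

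Hoxb5 ran from 3.13 to 4.94 CPM (median 3.74) in responders and from 4.3 to 6.94 CPM (median 6.07) in non-responders (-0.56 ± 0.089). Hoxb2, a hindbrain gene, ran from 0.451 to 1.15 CPM (median 0.803) and from 0.784 to 1.82 CPM (median 1.34) (-0.70 ± 0.15). Hoxb3 ran from 3.5 to 4.95 CPM (median 3.85) and from 3.66 to 6.04 CPM (median 5.14) (-0.29 ± 0.076), and 52.93% of its exon bases are shared with Hoxb3os. For these 3 genes 0 of 12 responders lay above the non-responder median. Hoxb7 ran from 8.09 to 13 CPM (median 11) and from 12.1 to 16.2 CPM (median 13.8) (-0.36 ± 0.077). Hoxb6 ran from 4.7 to 9.48 CPM (median 6.41) and from 6.47 to 10.1 CPM (median 8.67) (-0.33 ± 0.10). Hoxb8 ran from 1.67 to 3.21 CPM (median 2.42) and from 2.6 to 5.89 CPM (median 3.21) (-0.45 ± 0.13). The last 3 overlapped between the groups. Hoxb9, scarce in AB1, did not pass, at 0.317 to 0.907 CPM (median 0.635) and 0.494 to 1.26 CPM (median 0.777) (-0.36 ± 0.17).

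All 7 tested Hoxc genes were lower in AB1 responders. Hoxc6 ran from 16.9 to 26.6 CPM (median 22.1) in responders and from 29.1 to 35.4 CPM (median 32.4) in non-responders. It was, with Hoxa9, the other gene without overlap (-0.52 ± 0.072, edgeR adjusted p = 3.17e-06), while over all genes 0.741% had every responder below every non-responder and 2.04% every responder above. Hoxc5 ran from 3.59 to 8.28 CPM (median 5.06) and from 6.94 to 10 CPM (median 8.93) (-0.69 ± 0.11). Hoxc10, a gene of the lumbar region and hindlimb, ran from 10.9 to 29.1 CPM (median 16.9) and from 18.6 to 36 CPM (median 30) (-0.62 ± 0.12). In both, all 12 responders lay below the non-responder median. Hoxc4 ran from 7.66 to 13.4 CPM (median 9.93) and from 12.9 to 17.8 CPM (median 14.2) (-0.49 ± 0.083). Hoxc8, which sets the identity of brachial motor neurons, ran from 8.41 to 17.3 CPM (median 11.9) and from 13.2 to 21.6 CPM (median 17.2) (-0.46 ± 0.087). Hoxc9 changed least, from 6.13 to 9.77 CPM (median 7.49) and from 7.16 to 10.9 CPM (median 9.16) (-0.21 ± 0.084). Its call was lost in 9 of 24 edgeR fits that each left out 1 library (responder 1, 7, 9 or 10, or non-responder 2, 5, 6, 8 or 12), with adjusted p up to 0.0844.

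Hoxc13 had the largest fitted change and the most uneven libraries. It ran from 1.09 to 4.04 CPM (median 1.55) in responders and from 2.07 to 32.3 CPM (median 2.5) in non-responders (-1.22 ± 0.42, edgeR adjusted p = 0.0157). The highest value belonged to AB1 non-responder 3, which also held 227 CPM of Krt5, a keratin of basal skin cells. The second highest, 4.04 CPM, belonged to AB1 responder 3, with 21.4 CPM of Krt5. AB1 non-responder 7 held 92.2 CPM of Krt5 and 2.39 CPM of Hoxc13. Without AB1 non-responder 3 the log2 fold change was -0.45, and without all 3 of these libraries it was -0.63 (edgeR adjusted p = 0.000511). Without the 3 libraries 26 Hox genes were lower and 1 higher. The RNA 260/230 ratio ran from 2.02 to 2.35 in AB1 responders and from 1.08 to 2.22 in non-responders. The ratio of 1.08 was that of AB1 non-responder 3, the library with the highest Hoxc13. With this ratio and the 260/280 ratio as covariates the change of Hoxc13 was -0.35 (edgeR adjusted p = 0.259) and that of Hoxc9 was -0.16 (0.184). The other 26 of the 28 calls passed with these covariates.

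**Figure D4:**
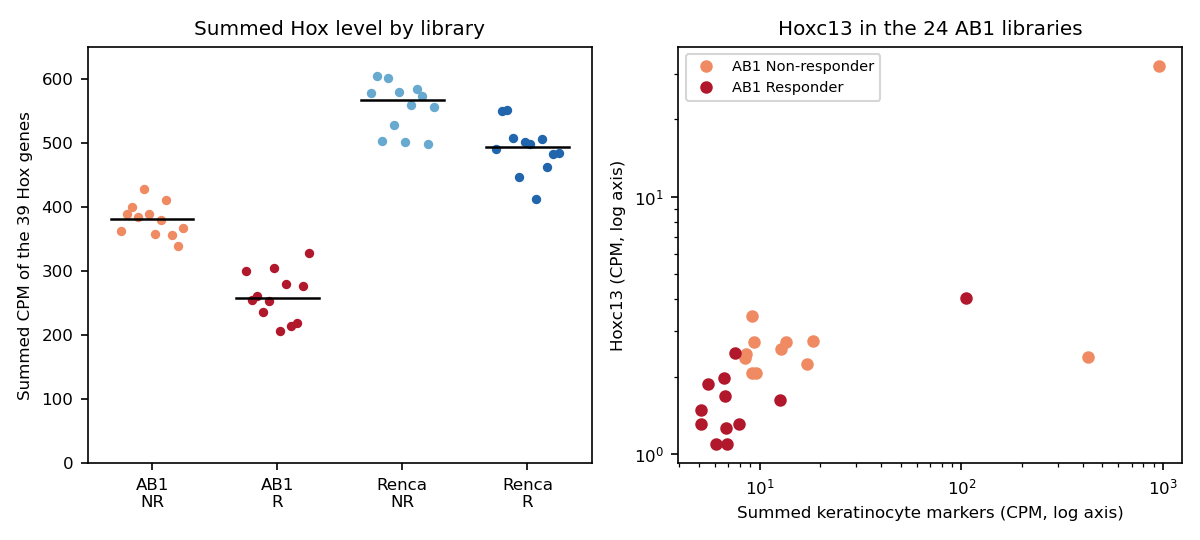
Left, summed CPM of the 39 Hox genes per library by tumour and response (NR, non-responder; R, responder; bar, median): AB1 responders reach at most 329 CPM and AB1 non-responders start at 339 CPM. Right, Hoxc13 against summed keratinocyte markers in the 24 AB1 libraries, both in CPM on log axes, with AB1 non-responder 3 alone at the upper right (32.3 CPM of Hoxc13, 956.3 CPM of markers).

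In the Hoxd cluster, 5 of 7 tested genes fell. Hoxd13 ran from 12.7 to 25 CPM (median 17.8) in responders and from 22.3 to 38.8 CPM (median 27.9) in non-responders (-0.66 ± 0.11, edgeR adjusted p = 1.97e-05). Hoxd8 ran from 23.4 to 37.8 CPM (median 28.4) and from 36.1 to 45.6 CPM (median 40.2) (-0.48 ± 0.065). Hoxd11, which acts with Hoxa11 in the forearm and kidney, ran from 4.24 to 8.31 CPM (median 6.23) and from 7.16 to 12.6 CPM (median 8.82) (-0.52 ± 0.10). For each of these 3, all 12 responders lay below the non-responder median and the ranges overlapped. Hoxd9 ran from 10.7 to 18.2 CPM (median 15.2) and from 15.5 to 21.6 CPM (median 19.2) (-0.32 ± 0.078). Hoxd10 ran from 11.5 to 16.2 CPM (median 13.2) and from 14.6 to 21.4 CPM (median 16.6) (-0.28 ± 0.072). Hoxd3 and Hoxd4, which share exon sequence, did not pass (-0.20 ± 0.15 and 0.09 ± 0.091). Hoxd4 stood at 6.16 to 9.49 CPM (median 7.93) in responders and 5.6 to 10.3 CPM (median 7.33) in non-responders.

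Cell type markers moved beside these falls. The 8 leukocyte markers summed to 2650 to 5360 CPM in AB1 responders and 1740 to 2600 CPM in AB1 non-responders, and all 8 rose. The 7 fibroblast markers summed to 10000 to 27400 CPM in responders and 18900 to 32100 CPM in non-responders, with 5 lower and 1 higher. AB1 responder 12 had the highest Hox sum of the responders, 329.2 CPM. It also had their lowest leukocyte sum, 2648 CPM, and their highest fibroblast sum, 27370 CPM. Of the 32 tested Hox genes, 24 lay below the non-responder median in that library, against 26 to 32 in the other responders. The part of these cell types in the Hox falls was not tested.

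Within flow cells of AB1, 18 of the 27 falls passed in the first (5 libraries a group) and 21 in the second (7 libraries a group). Of all genes tested, 2795 of 15480 were lower in the first flow cell and 3617 of 15448 in the second. All 28 called genes kept their direction in both. By position, 4 of 6 anterior, 13 of 15 central and 10 of 11 posterior genes were lower in responders over both flow cells. The share of all tested genes lower over both was 33.1%.

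Within Renca the same comparison gave smaller falls. The Hox genes summed to 413 to 551 CPM in responders (median 494.5) and 498 to 604 CPM in non-responders (median 566.5), and the groups overlapped. Of 29 tested genes, 14 were lower in responders, 0 higher and 15 did not pass (edgeR, adjusted over all genes), beside 8.01% of all tested genes lower, 11.6% higher and 19.7% called in either direction. At an unadjusted p of 0.05, 17 were lower and 0 higher, and DESeq2 also called 14 lower and 0 higher. The median log2 fold change was -0.16 over the Hox genes and -0.01 over all genes. By position, 2 of 5 anterior, 4 of 15 central and 8 of 9 posterior genes were lower. The median log2 fold changes of these sets lay closer together, at -0.18, -0.14 and -0.21. No Hox gene separated the groups without overlap, which 0.013% of all genes did in that direction.

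The 14 genes were Hoxa3, Hoxa7, Hoxa9, Hoxa10, Hoxa11, Hoxb3, Hoxb4, Hoxb9, Hoxc4, Hoxc10, Hoxd8, Hoxd9, Hoxd10 and Hoxd11. Hoxb9, the most abundant per length in Renca, ran from 55.9 to 85.7 CPM (median 73.7) in responders and from 75.7 to 102 CPM (median 87.6) in non-responders. All 12 responders lay below the non-responder median (-0.22 ± 0.056, edgeR adjusted p = 0.0102). Hoxa7 had the smallest adjusted p and ran from 13.1 to 18.8 CPM (median 15.6) and from 15.4 to 20.9 CPM (median 17.8) (-0.23 ± 0.052, edgeR adjusted p = 0.00546). Hoxb3 ran from 4.57 to 8.64 CPM (median 6.73) and from 7.05 to 8.85 CPM (median 8.33) (-0.32 ± 0.073, edgeR adjusted p = 0.00548). In these 2 genes 11 of 12 responders lay at or below the non-responder median.

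In the Hoxa cluster, Hoxa3 ran from 3.1 to 4.65 CPM (median 4.07) in Renca responders and from 3.58 to 5.5 CPM (median 4.87) in non-responders (-0.26 ± 0.07). Hoxa9 ran from 23.2 to 37.1 CPM (median 30) and from 31.5 to 43.9 CPM (median 36.3) (-0.26 ± 0.066). Hoxa10 ran from 30.7 to 44.8 CPM (median 38.3) and from 38.6 to 50.9 CPM (median 45.3) (-0.21 ± 0.057). The 3 overlapped between the groups, as did the following genes. Hoxa11 ran from 9.42 to 15.1 CPM (median 12.6) and from 12.5 to 17.9 CPM (median 14.5) (-0.23 ± 0.071). Hoxd8 ran from 30.5 to 39 CPM (median 36.1) and from 33.5 to 43.7 CPM (median 39.6) (-0.13 ± 0.04). Hoxd10 ran from 29.2 to 35.3 CPM (median 32.8) and from 32.3 to 42.3 CPM (median 37.8) (-0.18 ± 0.043), and all 12 responders were below the non-responder median in both Hoxd8 and Hoxd10.

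The remaining 5 genes were those whose call most often depended on the fit. Hoxb4 ran from 12.8 to 16.2 CPM (median 13.9) in responders and from 14.1 to 16.9 CPM (median 16) in non-responders (-0.14 ± 0.045), the opposite direction to AB1. Hoxd11 ran from 2.36 to 6.98 CPM (median 4.87) and from 4.26 to 7.71 CPM (median 5.92) (-0.35 ± 0.12). Hoxc4 ran from 3.98 to 6.67 CPM (median 5.59) and from 4.96 to 7.64 CPM (median 6.56) (-0.22 ± 0.075). Hoxc10 ran from 28.1 to 45.2 CPM (median 39.3) and from 38 to 50.7 CPM (median 43) (-0.16 ± 0.055). Hoxd9 ran from 32.8 to 43 CPM (median 37.3) and from 34.9 to 44.9 CPM (median 42.8) (-0.13 ± 0.046). With the sequencing lane as a term Hoxc4 and Hoxd9 lost their call (edgeR adjusted p = 0.0533 and 0.0601). Leaving out 1 library at a time gave counts from 8 (without Renca responder 8) to 15, with 9 without Renca non-responder 1 or Renca non-responder 4. In these 24 fits the call was lost in 16 for Hoxc4, 14 for Hoxd9, 13 each for Hoxc10 and Hoxd11, and 4 for Hoxb4 (responders 1 and 8, non-responders 1 and 4). Hoxa11 lost its call in 3 (responders 1 and 8, non-responder 4), with edgeR adjusted p up to 0.0586.

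Genes that did not pass in Renca had log2 fold changes from -0.31 ± 0.15 (Hoxa4) to 0.06 ± 0.091 (Hoxc8). Hoxc8 was the only tested gene above 0. Hoxc6, one of the clearest falls in AB1, stood at 19.2 to 28.4 CPM (median 23.1) in Renca responders and 21.4 to 27.5 CPM (median 23.9) in non-responders (-0.06 ± 0.052). Hoxb5 stood at 7.56 to 10.5 CPM (median 8.82) and 8.39 to 10.7 CPM (median 9.26) (-0.07 ± 0.054). Hoxd13 and Hoxc13 were not tested in Renca, and neither was Hoxd3.

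**Figure D5:**
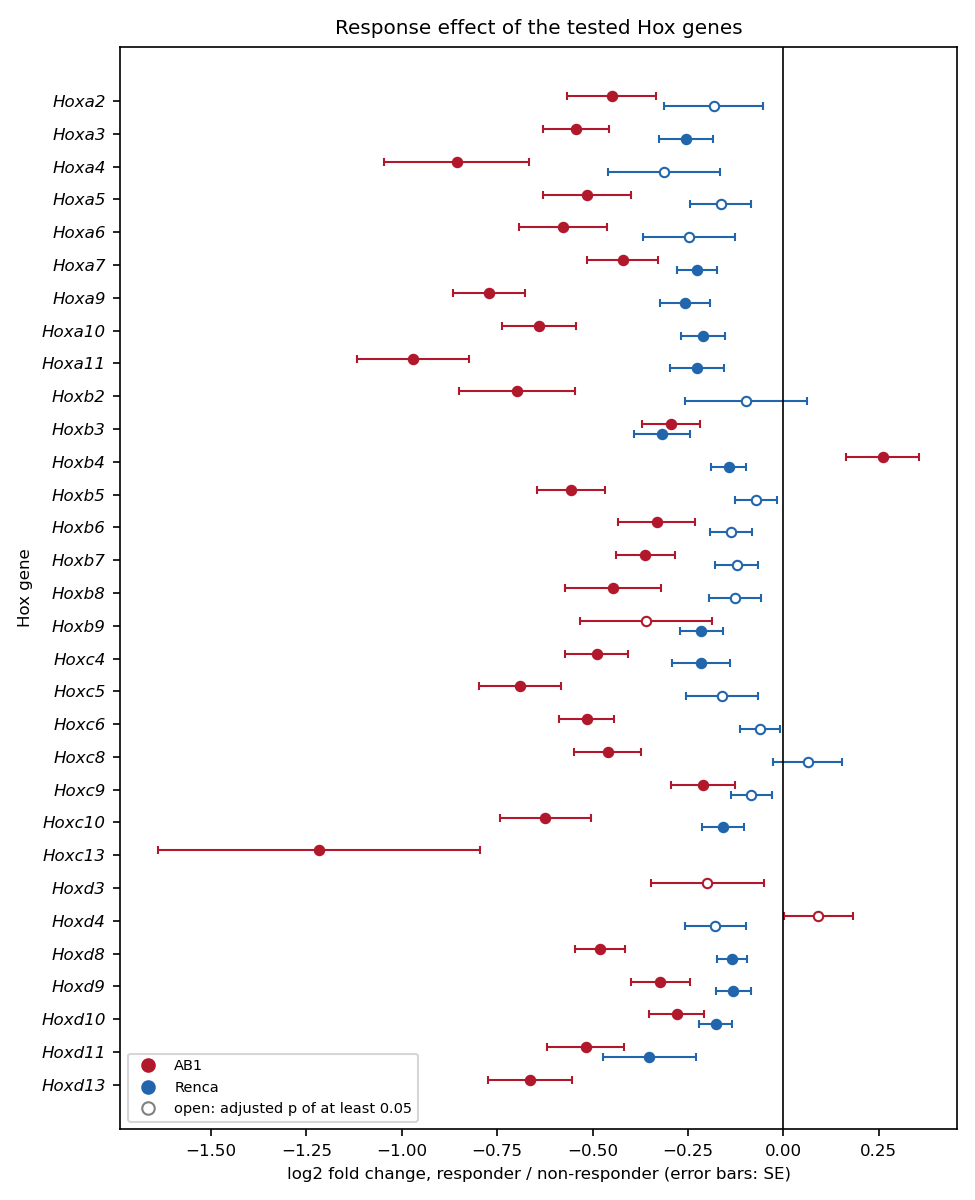
Log2 fold change of responders against non-responders (horizontal axis, points with SE) for 31 Hox genes tested in AB1, with the Renca value of the same gene beneath where it was tested. Filled points passed in the edgeR test. All AB1 points but Hoxb4 and Hoxd4 lie left of 0, down to Hoxc13 at -1.22, and the Renca points lie between -0.35 and 0.06.

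Within flow cells of Renca, each with 6 libraries a group, edgeR called 0 Hox genes lower in the first and 2 in the second (Hoxa9 and Hoxb3). In the first, 9 were lower and 1 higher at an unadjusted p of 0.05, and 0 of all genes passed after adjustment. With the 2 RNA purity ratios as covariates edgeR also called 0, with 15 lower and 0 higher at an unadjusted p of 0.05. The 260/230 ratio had a median of 2.01 in Renca responders and 2.16 in non-responders. All 14 genes kept their direction in these fits. The leukocyte markers summed to 2290 to 3220 CPM in Renca responders and 1770 to 2590 CPM in non-responders, with 7 of 8 higher. The kidney lineage markers summed to 222 to 381 CPM and 331 to 492 CPM, and 4 of the 5 tested fell, led by Cdh16 at -0.37 ± 0.074. The part of these in the Hox falls was not tested.

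Between the tumours, 12 genes were lower in responders of both, and 13 were lower in AB1 without passing in Renca. Of all tested genes, 33.1% were lower in AB1 responders and 8.01% in Renca responders. The share of all genes lower in both was not counted, so this overlap is a description only. The difference of the response effects was tested directly over all 48 libraries. It was lower in AB1 for 17 of 32 Hox genes and higher for 1, Hoxb4, beside 26.6% and 18.5% of all genes (45.1% in either direction). The median difference was -0.31 over the Hox genes and -0.07 over all genes. Hoxb4 differed by 0.37 ± 0.10 (edgeR adjusted p = 0.00287). Hoxc6 had the smallest adjusted p, with a difference of -0.49 ± 0.09 (edgeR adjusted p = 3.4e-05), and Hoxa11 the largest called difference, -0.78 ± 0.17 (edgeR adjusted p = 0.000207). For Hoxb3 the difference was -0.01 ± 0.10 (edgeR adjusted p = 0.945). Hoxd13 and Hoxc13, nearly without counts in Renca, did not pass (0.92 ± 0.46 and -1.76 ± 1.14).

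The TALE proteins are the partners with which Hox proteins bind DNA. Of 10 tested in AB1, 2 were higher and 3 lower in responders, beside 28% and 33.1% of all genes. In Renca 1 was higher and 2 lower, beside 11.6% and 8.01%. Such counts out of 10 genes are not read as a difference from all genes. Meis1 ran from 5 to 7.47 CPM (median 6.23) in AB1 responders and from 8.12 to 11.3 CPM (median 9.82) in non-responders, without overlap (-0.59 ± 0.076). Meis2 ran from 16.3 to 31.6 CPM (median 21.8) and from 26.2 to 48.3 CPM (median 39.7), with overlap (-0.69 ± 0.10). Pbx2 rose in AB1 (0.26 ± 0.051) and in Renca (0.09 ± 0.026). Pbx3 fell in AB1 (-0.32 ± 0.066) and in Renca (-0.10 ± 0.034). Between the tumours 3 of 10 differed by at least 1, beside 22.9% of all genes. Meis2 was higher in AB1 (2.76 ± 0.11), and Pbx3 and Meis3 were lower (-1.74 ± 0.044 and -1.68 ± 0.071).

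Transcripts of the clusters that are not Hox genes by the rule, mostly antisense, were tested for 7 of the 12 in the table. In AB1 responders 6 were lower and 0 higher by edgeR, beside 33.1% and 28% of all genes. In Renca 1 was lower and 0 higher, beside 8.01% and 11.6%. Hoxa11os ran from 4.6 to 11 CPM (median 6.73) in AB1 responders and from 9.26 to 15.1 CPM (median 11.2) in non-responders (-0.69 ± 0.11). Hoxd3os1 and Hoxb3os fell by 0.51 and 0.57 on the log2 scale. Hoxb3os lies opposite 52.93% of the Hoxb3 and 27.32% of the Hoxb2 exon bases, and Hoxd3os1 opposite 11.77% of those of Hoxd4. Without a strand setting, counts of these transcripts and of the Hox genes cannot be told apart there. Hoxb5os was the fall in Renca (-0.30 ± 0.087) and, like the Hoxb genes around it, was lower in AB1 than in Renca (-2.40 ± 0.12). Hoxaas2 was higher in AB1 (1.24 ± 0.12). Hottip and the homeobox genes Evx1 and Evx2 stayed at or below 0.0516 CPM in every library, and Hotair at or below 0.337 CPM.

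Upstream regulators include the Cdx factors, which switch on central and posterior Hox genes in the embryo, and the retinoic acid pathway, which switches on anterior ones. Cdx2 had 0 counts in all 48 libraries, Cdx1 stayed at or below 0.1 CPM and Cdx4 at or below 0.348 CPM. Of 12 tested regulators, 3 were higher and 4 lower in AB1 responders, beside 28% and 33.1% of all genes, and 1 higher and 0 lower in Renca by edgeR, beside 11.6% and 8.01%. The retinoic acid receptor Rarg and the growth factor Gdf11 fell in AB1 (-0.44 ± 0.082 and -0.40 ± 0.08). Another retinoic acid receptor, Rara, was among the 3 that rose there (0.49 ± 0.10). Between the tumours, Aldh1a2, an enzyme that makes retinoic acid, was lower in AB1 (-1.37 ± 0.24), as was Cyp26b1, which breaks it down (-1.20 ± 0.20). Aldh1a1, which also makes retinoic acid, was higher (1.14 ± 0.18).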

How the data were processed

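The authors deposited 1 table of raw counts, with 39637 mouse Ensembl identifiers in rows and 48 libraries in columns. Tools in the submitters' processing notes are StringTie 1.3.0, HISAT2 2.0.4 and bcl2fastq 2.18.0.12, and the builds there are the human GRCh37 and hg19. How reads were counted, on which mouse build and with which strand setting is not given in the sources used here. The 39 genes and all gene lists were chosen with earlier results of these data known.

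Counts were tested with edgeR 4.0.16 in R 4.3.3: TMM scaling, the filterByExpr filter by group, quasi-likelihood F tests, and p-values adjusted by Benjamini-Hochberg over all tested genes, called at 0.05. Each tumour was fitted with flow cell and response, AB1 against Renca with response as a term, and the difference of response effects with 4 flow cell levels. An SE is the log2 fold change divided by the square root of F. Of the genes tested, those named in full were the 12 of highest mean log2 CPM, the 10 of largest change between tumours and every gene passing in a responder comparison or in the difference, 31 in all. Results of a few genes are not reported here, and the figures leave out 1 of the 39, while counts and sums include them. Of each other list, up to 3 genes of smallest p per comparison are named, between tumours only at a change of at least 1. Rara, Pbx3, Rbbp7 and Ash2l in AB1 are named in addition. Exact counting intervals (95%) cover counting error only.

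Alternatives were DESeq2 1.42.0, its size factors, no filter, no flow cell term, RNA purity covariates, single flow cells, a replicate block and leaving out libraries. Leaving out libraries with over 100 CPM of keratinocyte markers was chosen after seeing the data. A term for the sequencing lane was added after seeing the data. Per the labels, in each tumour numbers 1 to 8 each mark 1 lane with 1 responder and 1 non-responder, while numbers 9 to 12 share 1 lane of 8 libraries. The number therefore marks a lane for 8 of 12 pairs only and is not taken to pair the mice. The tests were checked on simulated data.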

Additional observations from a re-analysis of the deposited data

Results flagged for a closer look

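For 18 Hox genes the response effect, responder against non-responder on the log2 scale, differed between AB1 and Renca by a test of the difference itself (edgeR quasi-likelihood test, adjusted p from 3.4e-05 to 0.0468). For 17 of them the effect was lower in AB1, beside 26.6% of all tested genes. In the Hoxa cluster the AB1 effect minus the Renca effect was -0.32 for Hoxa3, -0.57 for Hoxa4, -0.38 for Hoxa5, -0.55 for Hoxa9, -0.46 for Hoxa10 and -0.78 for Hoxa11. In the Hoxb cluster it was -0.63 for Hoxb2, -0.52 for Hoxb5, -0.27 for Hoxb7 and -0.35 for Hoxb8. In the Hoxc cluster it was -0.31 for Hoxc4, -0.57 for Hoxc5, -0.49 for Hoxc6, -0.56 for Hoxc8 and -0.50 for Hoxc10. In the Hoxd cluster it was -0.38 for Hoxd8 and -0.23 for Hoxd9. Hoxa4 lost its call in every alternative run, with adjusted p from 0.0545 (edgeR with the replicate block) to 0.0996 (DESeq2). Hoxb8 and Hoxd9 lost theirs with DESeq2 size factors and with no filter. Hoxd9 also lost it with DESeq2, and Hoxb8 without the libraries with keratinocyte markers.

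Hoxb4 was the one gene with the opposite difference, 0.37, and the only one of the 18 whose transcripts passed as higher in AB1 responders and lower in Renca responders. In Renca it stood close to the threshold with the sequencing lane as a term (edgeR adjusted p = 0.0489). Its Renca call was lost with the replicate block (edgeR adjusted p = 0.0614), no filter (0.0626) and RNA purity covariates (0.132). It was also lost in the first and second flow cell alone (edgeR adjusted p = 0.22 and 0.479). The difference between tumours passed in every alternative run, from 0.37 to 0.43.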

How the results depend on the processing

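Same-numbered responders and non-responders correlated in their deviations from the group means from -0.097 to 0.574 in AB1 (median 0.0334) and from -0.159 to 0.354 in Renca (median 0.104). With the replicate number as a block, 9 Hox genes were lower in Renca responders in place of 14 (Hoxb4, Hoxc4, Hoxc10, Hoxd9 and Hoxd11 lost their call), and the block changed no call of the 28 in AB1. With the sequencing lane as a term the Renca count was 12 (without Hoxc4 and Hoxd9), and all 28 AB1 calls passed. In the difference of effects 16 were lower in place of 17 with the block or the lane, 14 with DESeq2 size factors or no filter, and 15 with DESeq2 or without the 3 libraries with keratinocyte markers. The Renca count was also 9 with no filter, where more genes are tested, and 10 with no flow cell term. It was 0 with RNA purity covariates, 0 in the first flow cell and 2 in the second, and 8 to 15 when 1 library was left out. In AB1, the first flow cell alone gave 0 higher (edgeR; 0 higher also at an unadjusted p of 0.05), and leaving out 1 library gave 26 to 28 lower. Without the 3 libraries with keratinocyte markers, 2 Hox genes had a higher difference of effects, since Hoxd4 was gained. Between tumours, 4 directions turned: among non-responders Hoxa11 stood at 0.00092 and Hoxd8 at 0.0295, and among responders Hoxc5 stood at -0.0903 and Hoxc6 at -0.0664. Where no cause is given, the cause was not tested. DESeq2 gave no adjusted p for Hoxc13 in AB1. Counting genes as detected at 0.5 CPM gave 31, 32, 29 and 29 genes, and at 2 CPM 24, 28, 25 and 25, in AB1 responders, AB1 non-responders, Renca responders and Renca non-responders. Of the 7 Hox genes left out by the filter, Hoxa13 was called higher in AB1 than in Renca with no filter.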

Other observations

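Polycomb subunits, which keep Hox clusters silent, were tested for 26 genes. In AB1 responders 6 were higher and 12 lower, beside 28% and 33.1% of all genes, and in Renca 3 were higher and 2 lower, beside 11.6% and 8.01%. Cbx6 ran from 117 to 223 CPM (median 157) in AB1 responders and from 187 to 346 CPM (median 294) in non-responders (-0.77 ± 0.10), and Cbx2 from 9.28 to 13 CPM (median 10.8) and from 11.7 to 21 CPM (median 16.8) (-0.57 ± 0.081). Jarid2 moved the other way, from 68 to 112 CPM (median 86.2) in responders and from 47.4 to 69.8 CPM (median 57.4) in non-responders (0.60 ± 0.084). In Renca, Aebp2 (0.23 ± 0.049) and Rybp (0.14 ± 0.037) were higher and Rbbp7 was lower (-0.13 ± 0.033). Rbbp7 was also lower in AB1 responders (-0.36 ± 0.072). Only Cbx6 of the 26 differed between the tumours by at least 1 (1.28 ± 0.083), beside 22.9% of all genes.

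Trithorax members and demethylases of the Polycomb mark were tested for 15 genes, of which 7 were higher and 5 lower in AB1 responders, beside 28% and 33.1% of all genes, and 1 higher and 2 lower in Renca, beside 11.6% and 8.01%. Kdm6a, a demethylase, was higher in responders of both tumours (0.31 ± 0.049 in AB1 and 0.12 ± 0.032 in Renca). Kmt2b was higher (0.24 ± 0.048) and Men1 lower (-0.24 ± 0.045) in AB1, and Ash2l (-0.11 ± 0.036) and Hcfc1 (-0.08 ± 0.029) were lower in Renca. Ash2l was also lower in AB1 responders (-0.22 ± 0.054).

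Genes flanking the clusters were tested beside them. Of 14 tested in AB1, 6 were higher and 4 lower in responders, beside 28% and 33.1% of all genes, and of 15 in Renca 4 were higher and 1 lower, beside 11.6% and 8.01%. Skap2, which flanks Hoxa and acts in leukocytes, ran from 97.6 to 179 CPM (median 153) in AB1 responders and from 77.9 to 116 CPM (median 88.3) in non-responders (0.80 ± 0.086). Skap1, which flanks Hoxb and is a T cell adaptor, ran from 10.3 to 33.7 CPM (median 22.1) and from 1.43 to 9.92 CPM (median 6.18) without overlap (2.02 ± 0.26). Nfe2l2 rose in AB1 (0.58 ± 0.085), and Skap2, Snx10 and Skap1 rose in Renca (0.13 ± 0.029, 0.28 ± 0.063 and 0.83 ± 0.19). Ttll6, beyond the posterior end of Hoxb, ran from 0 to 0.175 CPM in AB1 and from 1.88 to 5.97 CPM in Renca, the same direction as Hoxb9 (-5.66 ± 0.24).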
